A study of Mus musculus with 31 samples.

Results

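The proteasome subunit genes were taken as every gene name that starts with Psma, Psmb, Psmc, Psmd or Psme and goes on with a digit, without the immunoproteasome genes Psmb8 and Psmb9. This gave 43 of the 24062 gene names in the tables of sorted cells and the same 43 of the 24322 names in the culture table. They were 7 alpha ring genes (Psma1 to Psma7), 7 beta ring genes (Psmb1 to Psmb7), 6 ATPase genes (Psmc1 to Psmc6), 11 non-ATPase genes of the regulatory particle (Psmd1 to Psmd4, Psmd6 to Psmd8 and Psmd11 to Psmd14) and 3 chaperones that assemble that particle (Psmd5, Psmd9 and Psmd10). The pattern also took 5 activator names (Psme1, Psme2, Psme2b, Psme3 and Psme4), the interferon-induced Psmb10, the tissue-specific Psma8 and Psmb11, and Psmc3ip, which is not a subunit but a partner of meiotic recombinases.

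The proteasome degrades proteins that carry ubiquitin chains. Its core particle is a barrel of alpha and beta rings, in which Psmb5, Psmb6 and Psmb7 carry the catalytic sites, and interferon can replace these with Psmb8, Psmb9 and Psmb10. A regulatory particle binds the end of the barrel, where non-ATPase subunits hold the chain and remove it and a ring of ATPases unfolds the protein, while activators of the Psme genes can take its place. The subunits are needed in fixed proportions, and in mammals the transcription factors Nfe2l1 and Nfe2l2 raise their genes together through antioxidant response elements. In neural stem cells, proteasome activity and the clearing of protein aggregates have been tied to quiescence and activation.

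RNA sequencing covered 21 libraries, 3 in each of 7 groups, of which 15 came from sorted cells and 6 from cultures. The sorted cells were EGFP-positive cells of the dentate gyrus of Nestin-EGFP mice on the C57BL/6 background, in which regulatory elements of Nestin drive the fluorescent protein. MDZ P10 mice received midazolam (MDZ, a benzodiazepine sedative) at 10 mg/kg into the peritoneum on postnatal days 7, 8 and 9, Control P10 mice received water on those days, and 50000 cells of 1 mouse made a library on postnatal day 10. At 8 weeks, RUN MDZ 8w mice had been exposed to midazolam in the same way and were kept with a running wheel, MDZ 8w mice had been exposed and kept without one, and Control 8w mice had received water. An 8-week library held about 30000 cells pooled from 3 to 5 mice. No running group without midazolam was listed, so the wheel was seen in exposed mice only. The cultures were neural stem cells of ICR mice, started from embryonic day 11 cortex, grown with EGF and bFGF and passaged more than 20 times. Egr1 culture carried a lentivirus for Flag-tagged Egr1 and one for the M2rtTA transactivator, and Control culture carried the M2rtTA lentivirus alone. Egr1 is an immediate early transcription factor with zinc fingers.

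Values were FPKM at P10 and TPM at 8 weeks and in culture. Genes above 0 numbered 17623 to 18470 in P10 libraries, 15568 to 15906 in RUN MDZ 8w, 15382 to 16709 in MDZ 8w, 11163 to 11397 in Control 8w and 15537 to 15998 in culture. Relative depth, read from the steps of the lowest values, ran from 0.570 to 1 at P10 and from 0.898 to 1 in culture, and it is unknown for the 8-week libraries. All 6 neural stem and radial glia markers (Nes, Sox2, Hopx, Fabp7, Gfap and Slc1a3) were above 0 in every library. At P10 so were the markers of every other cell type looked at, so detection does not tell cell types apart there. Summed over the P10 libraries' sets, radial glia markers were at 1806 to 2368 FPKM, mature oligodendrocyte markers at 991 to 2318 FPKM and oligodendrocyte precursor markers at 766 to 1178 FPKM. Replicates 2 and 3 of Control 8w were closer to each other than any other pair of 8-week libraries of a group and were counted as 1 sample, so that Control 8w had n = 2. Control 8w replicate 1 stood apart from both: 12 of 31 core subunit genes, meaning the alpha ring, beta ring, ATPase and non-ATPase genes, were over 2-fold away from each of the pair, and 0 of 31 in every other pair within a group. Psmc2 was at 0.0829 TPM and Psmb10 was listed at 0 in that library, so results against Control 8w are also given without it. Control 8w was then 1 sample, so effect sizes are given for those fits and no p-values.

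The core subunits were among the higher genes in all 3 tables. At P10 their median percentile among tested genes was 92.4 (68.3 to 97.7), at 8 weeks it was 93.5 (76.7 to 98.0), and in culture it was 95.0 (80.6 to 98.6). Within each ring the levels differed several-fold, although every position of a ring is filled by 1 subunit. Psmb4, a non-catalytic beta subunit, led the beta ring with means of 93.4 FPKM at P10, 391 TPM at 8 weeks and 684 TPM in culture, and the catalytic Psmb5 was the lowest of that ring with 28.5 FPKM, 107 TPM and 205 TPM. Among alpha genes Psma5 was the lowest, at 15.7 FPKM, 84.7 TPM and 109 TPM. Psma6 was the highest at P10 and at 8 weeks, with 71.9 FPKM and 371 TPM, and Psma7 in culture, with 606 TPM.

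In the regulatory particle, the ATPase gene Psmc3 was the highest of its ring at P10 (53.4 FPKM) and at 8 weeks (241 TPM), and Psmc5 in culture (353 TPM). Psmc2 was the lowest ATPase gene, with 34.3 FPKM, 122 TPM and 214 TPM. Psmd11, a lid subunit, was the lowest non-ATPase gene throughout, at 16.5 FPKM, 74.6 TPM and 76.2 TPM, while Psmd3 (53.4 FPKM) or Psmd8 (209 TPM at 8 weeks, 368 TPM in culture) was the highest. The chaperones lay under most subunits, from 7.12 FPKM for Psmd10 to 16.9 FPKM for Psmd5 at P10. The order of the 31 core genes was much the same between tables, with Spearman correlations of 0.867 between P10 and 8 weeks, 0.824 between P10 and culture and 0.904 between 8 weeks and culture, over points that share each gene's length.

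Activators and inducible genes lay below the median of the core subunits. Psme2, whose protein forms a mixed ring with that of Psme1, was the lowest activator at 7.65 FPKM, 51.2 TPM and 42.5 TPM, and Psme3, which forms a nuclear activator ring of its own, reached 28.9 FPKM at P10 and 146 TPM in culture. Psmb10 averaged 10.1 FPKM, 40.5 TPM and 37.0 TPM, and Psmc3ip 5.51 FPKM, 25.8 TPM and 55.2 TPM. Psma8, the testis form of an alpha subunit, averaged 0.156 FPKM and 0.646 TPM and was listed at 0 in all culture libraries, and Psmb11, the thymus-specific beta subunit, stayed under 0.06 on average in every table. These last genes were too low to be tested, so 41 of the 43 names entered each comparison. Psme2b is a single-exon copy of Psme2 on chromosome 11 (48945345 to 48946410), and reads may be shared between the pair, so the values of both are uncertain.

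**Figure D1:**
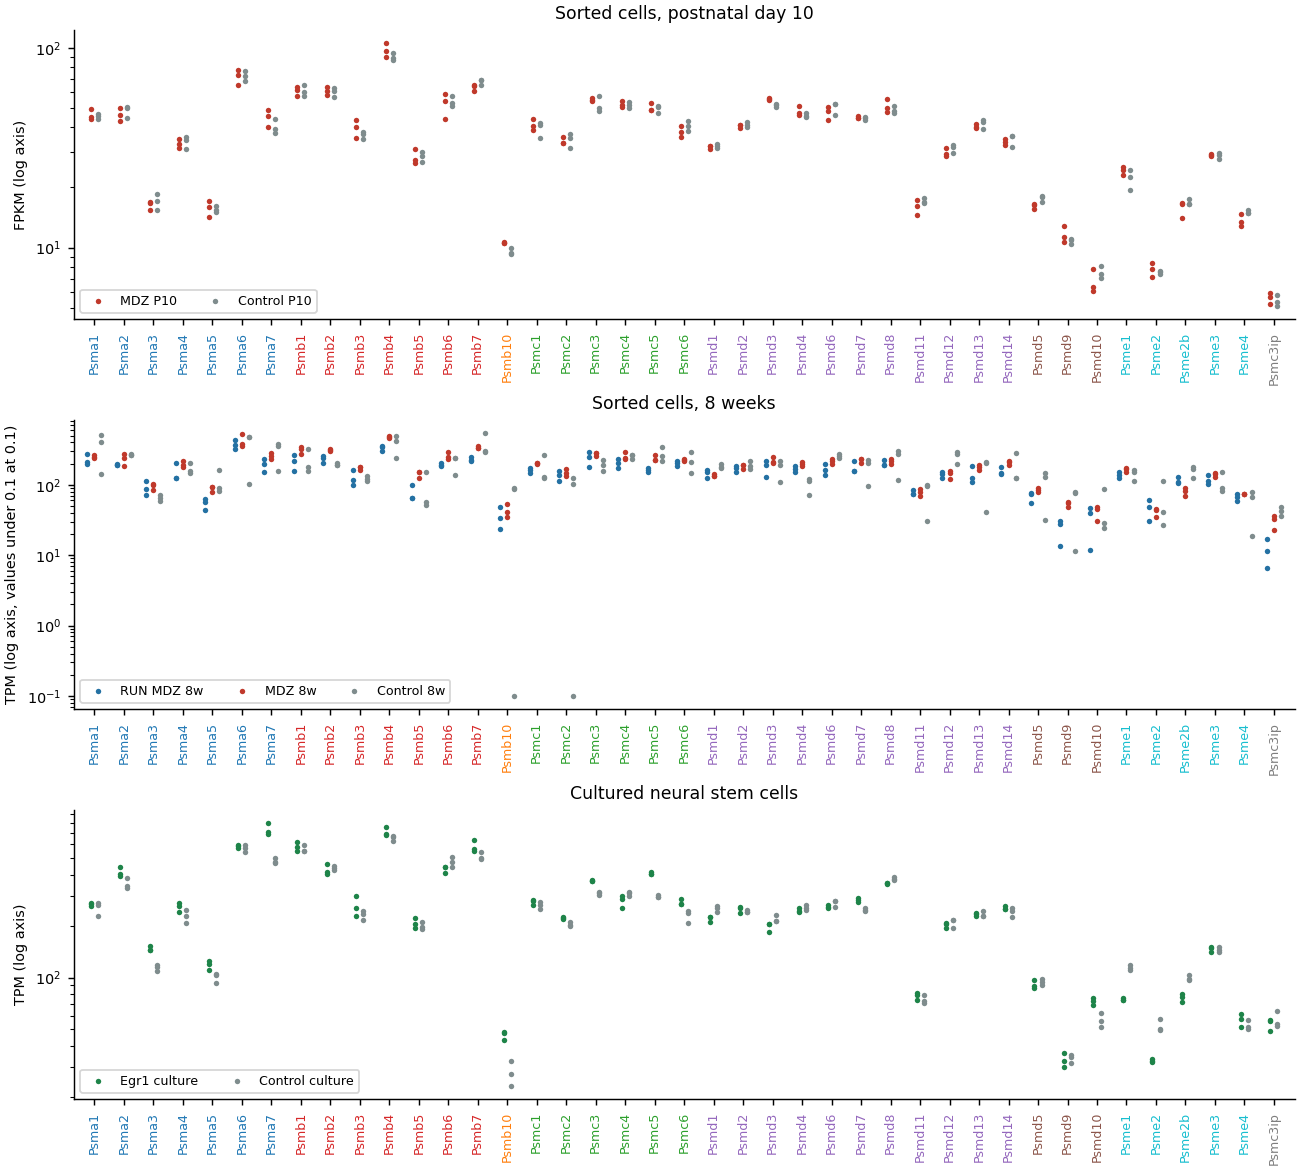
Level of each tested member in every library, on a log axis, in FPKM at P10 and in TPM at 8 weeks and in culture; each dot is 1 library and members are ordered by their place in the complex. The beta ring gene Psmb4 and the alpha ring gene Psma6 lie near the top of each panel, with Psma7 beside them in culture. Psmb10, Psmc3ip, Psme2 and the chaperones Psmd9 and Psmd10 lie near the bottom, and the Control 8w library with Psmc2 at 0.0829 TPM is drawn at the floor of 0.1 TPM.

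The first comparison asked what midazolam did to these genes 1 day after the last injection. Summed over the members, the share of the library was 0.637%, 0.609% and 0.602% in MDZ P10 and 0.602%, 0.627% and 0.641% in Control P10, so the groups overlapped. None of the 41 members passed (limma-trend on log2(value + 1) over 12914 genes, Benjamini-Hochberg adjusted p below 0.05), and 0.00774% of all genes did. At an unadjusted p below 0.05 there were 2 of 41 members, against 12.2% of all genes, 1 of them higher (8.54% of all genes) and 1 lower (3.65%). The change was positive for 21 members and negative for 20, against 55.9% and 44.1% of all genes. The members' log2 changes ran from -0.14 to 0.15 with a median of 0.00, and those of all genes had a median of 0.01. Their interquartile range was 0.110, against 0.149 for all genes.

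Of the catalytic subunits, Psmb5, which has the chymotrypsin-like activity, measured 31.0, 27.5 and 26.6 FPKM in MDZ P10 and 26.9, 28.6 and 30.2 FPKM in Control P10 (log2 -0.01). Psmb6, which has the caspase-like activity, had a log2 change of -0.05, and Psmb7, which has the trypsin-like activity, one of -0.09 (limma adjusted p = 0.53). Psmb10, the inducible form that replaces Psmb7, was at 10.5, 10.6 and 10.7 FPKM in MDZ P10, and at 9.33, 9.41 and 9.93 FPKM in Control P10. The MDZ P10 values all lay above the Control P10 values, but Psmb10 did not pass (log2 0.14 ± 0.05 SE, limma adjusted p = 0.359).

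Groups did not overlap for 4 of 41 members, 2 higher and 2 lower, against 12.2% and 6.61% of all genes. Beside Psmb10 the higher one was Psmd3, a scaffold of the lid, with 55.5, 56.0 and 54.8 FPKM in MDZ P10 and 50.8, 51.5 and 52.1 FPKM in Control P10 (log2 0.10, limma adjusted p = 0.415). The lower ones were Psme4, a large nuclear activator, with 12.9, 13.4 and 14.6 FPKM in MDZ P10 and 14.9, 15.4 and 14.9 FPKM in Control P10 (log2 -0.14, limma adjusted p = 0.409), and the chaperone Psmd5, with 16.4, 15.7 and 16.6 FPKM in MDZ P10 and 17.9, 16.9 and 18.2 FPKM in Control P10 (log2 -0.12, limma adjusted p = 0.422). Psma7 had the highest change among alpha genes (log2 0.15, limma adjusted p = 0.514). Psme1, Psme2, Psme2b and Psme3 had log2 changes of 0.13, 0.04, -0.10 and 0.02, and Psmc3ip one of 0.04. Summed pericyte and smooth muscle markers were at 145 to 171 FPKM in MDZ P10 and 194 to 233 FPKM in Control P10, and their part in these values was not tested. In sorted bulk cells, fewer cells of a type and less RNA per cell cannot be told apart.

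At 8 weeks, MDZ 8w was set against Control 8w to ask what remained of early midazolam in the adult. The members took 0.729%, 0.809% and 0.757% of the library in MDZ 8w and 0.636%, 0.753% and 0.767% in Control 8w. Among 41 members, 1 rose and 1 fell, while 4.68% of the 15264 genes tested rose and 0.452% fell. Both groups are also used in the other 8-week comparisons, so those are not independent of this one. At an unadjusted p below 0.05 there were 8 members (22.8% of all genes), 5 higher (17.6%) and 3 lower (5.12%). The change was positive for 28 members and negative for 13, against 66.1% and 31.7% of all genes, and the members' median log2 change was 0.25, against 0.36 for all genes. With quantile normalization the medians were 0.30 for the members and -0.06 for all genes, so the members then lay above all genes.

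The member that rose was Psmd4, the subunit that binds ubiquitin chains. It was at 210.1, 197 and 185 TPM in MDZ 8w and at 70.6, 114 and 123 TPM in Control 8w, so the groups lay apart (log2 1.10 ± 0.24, limma adjusted p = 0.0418). The call stood under 8 of 20 alternatives and was lost without any single library of MDZ 8w (adjusted p 0.121 to 0.167) or of RUN MDZ 8w (adjusted p 0.0559 to 0.0689), whose libraries enter the shared spread. Without Control 8w replicate 1 the log2 change was 0.73, with Control 8w as 1 sample.

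The one that fell was Psme2b. Its level was 68.5, 88.8 and 81.7 TPM in MDZ 8w and 169.5, 127 and 177 TPM in Control 8w, again without overlap (log2 -1.01 ± 0.20, limma adjusted p = 0.0316). Psme2, the gene it copies, was at 35.1, 44.8 and 43.5 TPM in MDZ 8w and at 112, 40.7 and 26.9 TPM in Control 8w, where the high value came from replicate 1 alone (a log2 change of -0.58, adjusted p = 0.525). The Psme2b call stood under 13 of 20 alternatives and was lost without MDZ 8w replicate 1, 2 or 3 (adjusted p 0.0797 to 0.137), RUN MDZ 8w replicate 1 (adjusted p = 0.052) or Control 8w replicate 3 (adjusted p = 0.0669).

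With Control 8w replicates 2 and 3 averaged, groups did not overlap for 8 higher and 5 lower members of 41, where 27.8% and 11.3% of all genes were so placed. By single library, Psmb4 and Psme1 among the higher ones did overlap. Control 8w replicate 3 had 499.7 TPM of Psmb4, above every MDZ 8w library. Control 8w replicate 2 had 164.7 TPM of Psme1, above MDZ 8w replicate 1 (152.7 TPM). The beta ring was positive in 6 of 7 genes, with a median of 0.53. Psmb2, a non-catalytic beta subunit, was at 308, 325 and 299 TPM in MDZ 8w and at 189, 190.0 and 207 TPM in Control 8w and just missed the threshold (log2 0.68 ± 0.16, limma adjusted p = 0.0509). Psmb5 and Psmb6 had log2 changes of 0.64 and 0.47 and Psmb7 one of -0.23, none of which passed. In the lid, Psmd12 was at 146, 155 and 122 TPM in MDZ 8w and at 197, 288 and 272 TPM in Control 8w (log2 -0.74 ± 0.22, limma adjusted p = 0.0989), and Psmd1, the scaffold of the base, had a log2 change of -0.43 (adjusted p = 0.213).

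Where Control 8w replicate 1 decided a value, the spread was wide. Psmc2 was at 146, 169.9 and 134 TPM in MDZ 8w and at 0.0829, 103 and 126 TPM in Control 8w (log2 3.75 ± 1.56, limma adjusted p = 0.207). Psmb10 was at 41.2, 34.7 and 54.1 TPM in MDZ 8w, and was listed at 0 in Control 8w replicate 1 and stood at 91.0 and 87.4 TPM in replicates 2 and 3. Its fitted change of 2.20 (adjusted p = 0.428) therefore had the opposite sign to the comparison with those 2 libraries. Psme1, Psme3 and Psme4 had log2 changes of 0.17, 0.29 and 0.95 and Psmc3ip one of -0.43, and none passed.

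Without Control 8w replicate 1, Control 8w was 1 sample, the average of replicates 2 and 3, and the other 8-week groups supplied the spread. The members' median log2 change was then 0.06, against 0.24 for all genes. With only replicate 1 kept, an alternative chosen after the data were seen, Control 8w was again 1 sample. The medians were then 0.28 for the members and 0.35 for all genes. Summed radial glia markers were at 2864 to 3606 TPM in MDZ 8w and 1615 to 1875 TPM in Control 8w, neuroblast markers at 1269 to 1809 TPM in MDZ 8w and 2437 to 2683 TPM in Control 8w, and pericyte markers at 612 to 1316 TPM in MDZ 8w and 2335 to 3482 TPM in Control 8w. Endothelial markers (205 to 239 TPM in MDZ 8w, 269 to 320 TPM in Control 8w) and mature neuron markers (273 to 336 TPM in MDZ 8w, 369 to 405 TPM in Control 8w) also lay apart. In each of these 2 sets 2 of 6 genes had a positive change, against the direction of the sum. Camk2a of the mature neuron set was listed at 0 in all Control 8w libraries and above 0 in all MDZ 8w libraries. Of the ependymal and choroid set, Foxj1, Ccdc153, Tmem212 and Dynlrb2 were listed at 0 in all Control 8w libraries and above 0 in all MDZ 8w libraries. The sums of that set overlapped (33.4 to 72.8 TPM in MDZ 8w, 26.7 to 4775 TPM in Control 8w). In Control 8w replicate 1 only 1 of 6 microglia markers was above 0. The part of these marker sets in the result was not tested.

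**Figure D2:**
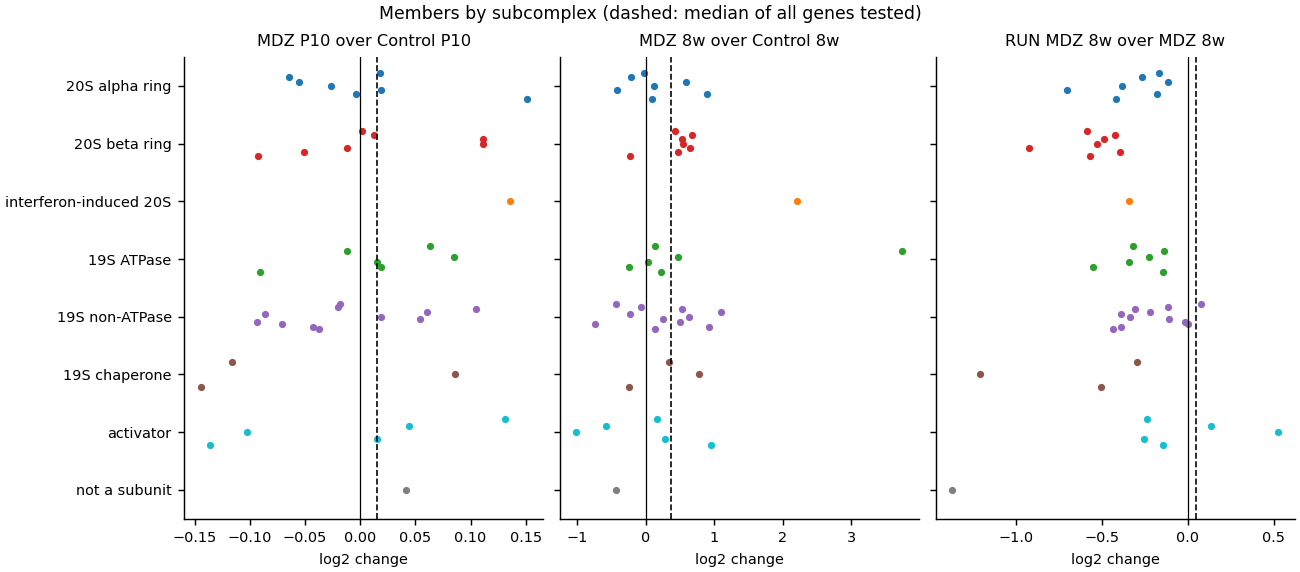
Log2 change of each tested member in 3 comparisons, MDZ P10 over Control P10, MDZ 8w over Control 8w and RUN MDZ 8w over MDZ 8w, grouped by place in the complex; the dashed line is the median of all genes tested and the horizontal scales differ. Members spread on both sides of the line at P10 (-0.14 to 0.15), and 38 of 41 lie below 0 in RUN MDZ 8w over MDZ 8w.

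The next comparison asked how mice with a running wheel differed among exposed adults. The members took 0.617%, 0.643% and 0.588% of the library in RUN MDZ 8w and 0.729%, 0.809% and 0.757% in MDZ 8w, so every running library was below every library without a wheel. No single member passed over all genes, where 24 of 15264 (0.157%) did. At an unadjusted p below 0.05 there were 8 members (9.98% of all genes), 7 lower (3.96%) and 1 higher (6.02%). The log2 change was negative for 38 of 41 members, against 46% of all genes, with a median of -0.32 against 0.05. The groups did not overlap for 19 of 41 members (24.9% of all genes). Of these, 18 were lower, where 10.5% of all genes were so placed, and 1 was higher, where 14.4% were.

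The beta ring was singled out after its values were seen. All 7 of its genes were lower in every RUN MDZ 8w library than in every MDZ 8w library, with a median log2 change of -0.53 (-0.92 to -0.39). Psmb5 was at 99.0, 64.2 and 64.8 TPM in RUN MDZ 8w and at 153, 150.0 and 124 TPM in MDZ 8w. Its mean was 76.0 ± 19.9 TPM in RUN MDZ 8w and 142 ± 15.9 TPM in MDZ 8w (SD, n = 3 each; log2 -0.92 ± 0.37, limma adjusted p = 0.458). The highest running library for Psmb5 was still under the lowest one without a wheel.

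Psmb7 was at 223, 249 and 217 TPM in RUN MDZ 8w and at 338, 353 and 331 TPM in MDZ 8w, a wide gap beside the spread within each group (log2 -0.57 ± 0.22, limma adjusted p = 0.435). It passed when libraries were weighted by their own spread (adjusted p = 0.0439), the one member called under any of the alternatives, and in that setting 2.83% of all genes were called. Psmb6, the other catalytic subunit, was at 189.9, 206 and 185 TPM in RUN MDZ 8w and at 229, 248 and 289 TPM in MDZ 8w (log2 -0.39, limma adjusted p = 0.654). Among non-catalytic genes, Psmb2 was at 238, 253 and 206 TPM in RUN MDZ 8w and at 308, 325 and 299 TPM in MDZ 8w (log2 -0.42 ± 0.14, limma adjusted p = 0.351). Psmb4 was at 348, 352 and 299 TPM in RUN MDZ 8w and at 480.1, 488 and 469 TPM in MDZ 8w (log2 -0.53 ± 0.23, limma adjusted p = 0.516). Psmb1 and Psmb3 had log2 changes of -0.59 and -0.49.

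**Figure D3:**
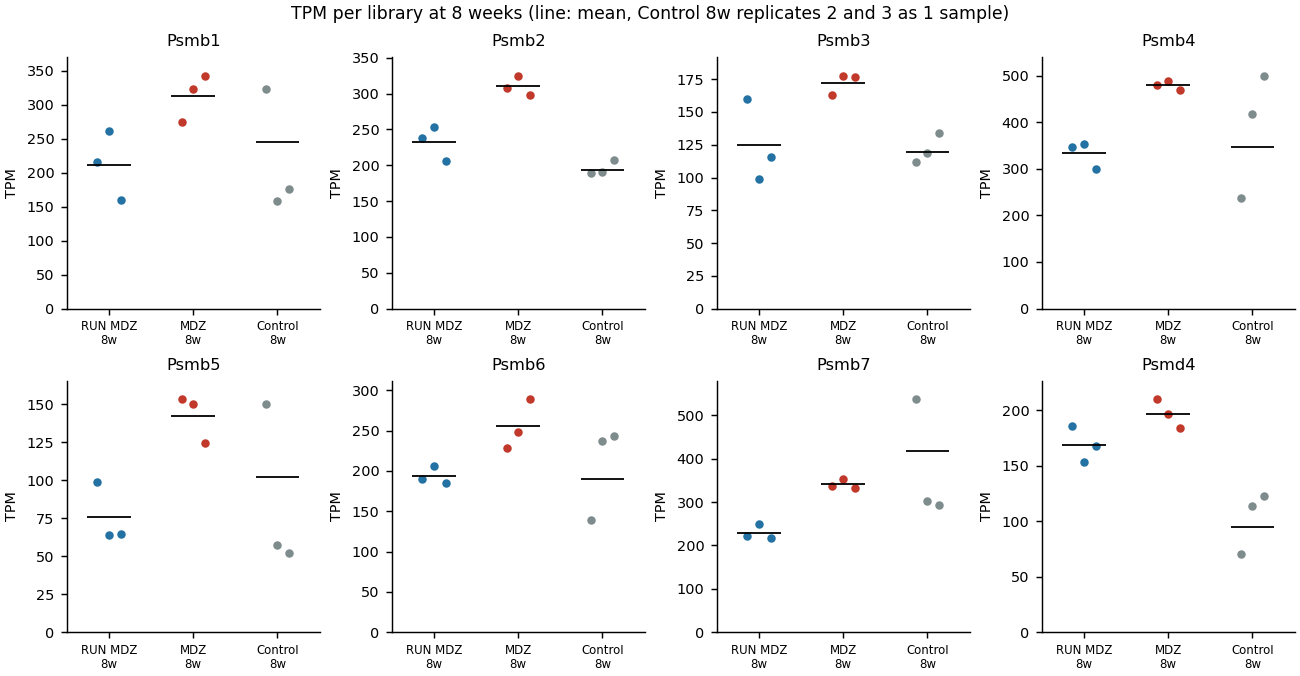
TPM per library of the beta ring genes Psmb1 to Psmb7 and of the ubiquitin receptor Psmd4, with RUN MDZ 8w, MDZ 8w and Control 8w from left to right; each dot is 1 library and the line is the mean, with Control 8w replicates 2 and 3 as 1 sample. For each beta gene the 3 RUN MDZ 8w libraries lie under the 3 MDZ 8w libraries, and Psmb7 in Control 8w spreads from 293 to 537 TPM.

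Outside the beta ring the direction was alike, with more overlap between the groups. All 7 alpha genes were negative (median -0.27), and Psma5 and Psma7 did not overlap. All 6 ATPase genes were negative (median -0.27), and Psmc1, Psmc4, Psmc5 and Psmc6 did not overlap. Psmc5 was at 159.6, 176 and 154 TPM in RUN MDZ 8w and at 227, 263 and 228 TPM in MDZ 8w (log2 -0.55 ± 0.18, limma adjusted p = 0.337). Of the 11 non-ATPase genes 10 were negative (median -0.22), but only Psmd14, the deubiquitinase of the lid, did not overlap, and Psmd4 had a log2 change of -0.22. The 3 chaperones were negative, with Psmd9 at 27.8, 13.6 and 30.2 TPM in RUN MDZ 8w and at 47.6, 55.8 and 57.3 TPM in MDZ 8w (log2 -1.20, limma adjusted p = 0.619).

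Psmc3ip, which is not part of the complex, had the smallest p among members that were lower. Its level was 11.4, 6.62 and 16.8 TPM in RUN MDZ 8w and 35.7, 32.3 and 22.7 TPM in MDZ 8w, with no overlap (log2 -1.37 ± 0.41, limma adjusted p = 0.293). Psme2b was the 1 member that was higher without overlap, at 110.4, 129 and 105 TPM in RUN MDZ 8w and at 68.5, 88.8 and 81.7 TPM in MDZ 8w (log2 0.53 ± 0.18, limma adjusted p = 0.371). Psme2 (log2 0.14) and Psmd1 (log2 0.08) were the other positive ones. Psme1, Psme3 and Psme4 had log2 changes of -0.24, -0.25 and -0.15, and Psmb10, at 47.6, 23.4 and 33.4 TPM in RUN MDZ 8w and 41.2, 34.7 and 54.1 TPM in MDZ 8w, one of -0.34.

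Over 19 alternatives the members' median ran from -0.35 to -0.26, and all 7 beta genes were negative in each. The number of negative members was 35 to 38 of 41, and 40 of 43 names where no filter was used. Marker sets of 4 other cell types lay apart in the same libraries. Summed endothelial markers were at 637 to 784 TPM in RUN MDZ 8w and 205 to 239 TPM in MDZ 8w, and pericyte markers at 2194 to 3160.5 TPM in RUN MDZ 8w and 612 to 1316 TPM in MDZ 8w. Mature oligodendrocyte markers were at 2061 to 3289 TPM in RUN MDZ 8w and 132 to 745 TPM in MDZ 8w, and ependymal and choroid markers at 249 to 4068 TPM in RUN MDZ 8w and 33.4 to 72.8 TPM in MDZ 8w. All 6 markers of each set were above 0 in all these libraries, except that the ependymal set had 5 in some. Radial glia markers overlapped, at 2592 to 2941 TPM in RUN MDZ 8w and 2864 to 3606 TPM in MDZ 8w. The part of these cell types in the lower proteasome values was not tested.

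Against Control 8w, RUN MDZ 8w had 2 of 41 members called, both lower, where 1.9% of all genes fell and 9.41% rose. At an unadjusted p below 0.05 there were 9 members (27.2% of all genes), 8 lower (6.62%) and 1 higher (20.5%). With Control 8w replicates 2 and 3 averaged, groups did not overlap for 10 lower and 3 higher members, against 10.6% and 24.4% of all genes. By single library, Psme2b among the lower ones and Psma3 and Psmb2 among the higher ones did overlap. Psmc5, an ATPase, averaged 163 ± 11.3 TPM in RUN MDZ 8w (n = 3) and 288 ± 74.8 TPM in Control 8w (n = 2; log2 -0.79 ± 0.20, limma adjusted p = 0.0424). In RUN MDZ 8w Psmc3ip averaged 11.6 ± 5.11 TPM, against 40.5 ± 6.00 TPM in Control 8w (log2 -1.80 ± 0.46, limma adjusted p = 0.0455). The Psmc5 call stood under 6 of 20 alternatives and the Psmc3ip call under 12. Psmc5 was lost without any one RUN MDZ 8w or MDZ 8w library (adjusted p 0.062 to 0.105) and without Control 8w replicate 3 (0.0719). It was also lost without Control 8w replicate 1 (log2 -0.53), where Control 8w was 1 sample. The Psmc3ip call was lost without RUN MDZ 8w replicate 1 or 2 or any 1 of the MDZ 8w libraries (adjusted p 0.0736 to 0.0934). Psma5 (log2 -1.12, limma adjusted p = 0.0577), Psmd12 (log2 -0.74, limma adjusted p = 0.0672) and, in the other direction, Psmd4 (log2 0.88, limma adjusted p = 0.0545) were close to the threshold without passing.

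The catalytic genes Psmb5, Psmb6 and Psmb7 had log2 changes of -0.28, 0.08 and -0.80 against Control 8w, and Psme1, Psme2, Psme3 and Psme4 of -0.07, -0.45, 0.03 and 0.80, none of them called. Psmc2 (3.60) and Psma3 (0.47) were positive. The change was positive for 19 of 41 members and 68.7% of all genes, and negative for 22 and 31.3%, and the members' median was -0.16, against 0.51 for all genes. With quantile normalization the medians were -0.05 for the members and -0.09 for all genes, so the members no longer lay below all genes. Psmb10 turned round with 1 library: its change was 1.86 (limma adjusted p = 0.451) with all libraries and -1.39 without Control 8w replicate 1. Without that library Control 8w was 1 sample, and the members' median was -0.31, against 0.35 for all genes. With only that replicate of Control 8w (again 1 sample), the medians were 0.06 for the members and 0.53 for all genes. The inducible genes that the name rule left out were also uneven. Psmb8 was at 13.6, 29.8 and 11.8 TPM in RUN MDZ 8w, at 10.4, 16.1 and 8.30 TPM in MDZ 8w and at 0.241 TPM or listed at 0 in Control 8w. Psmb9 was listed at 0 in 1 RUN MDZ 8w library and all Control 8w libraries and stood at 7.08 to 32.1 TPM in the others. All 8-week p-values use 1 spread for the 3 groups, although Control 8w varied more. Radial glia markers were at 2592 to 2941 TPM in RUN MDZ 8w and 1615 to 1875 TPM in Control 8w, neuroblast markers at 1387 to 1626 TPM in RUN MDZ 8w and 2437 to 2683 TPM in Control 8w, and mature oligodendrocyte markers at 2061 to 3289 TPM in RUN MDZ 8w and 197 to 251 TPM in Control 8w. Endothelial markers (637 to 784 TPM in RUN MDZ 8w, 269 to 320 TPM in Control 8w) and mature neuron markers (240.2 to 350 TPM in RUN MDZ 8w, 369 to 405 TPM in Control 8w) lay apart as well. The mature neuron genes did not all go the way of their sum. Of 6 tested, 2 had a positive change, and the 1 that was called rose. Camk2a of that set was listed at 0 in all Control 8w libraries and above 0 in all RUN MDZ 8w libraries. Foxj1, Ccdc153, Tmem212 and Dynlrb2 of the ependymal and choroid set were listed at 0 in all Control 8w libraries and above 0 in all RUN MDZ 8w libraries. The part of these sets in this comparison was not tested.

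Culture asked what added Egr1 does to these genes. Egr1 itself was at 1769, 1390.3 and 1291 TPM in Egr1 culture and at 361, 285 and 344 TPM in Control culture (log2 2.16, limma adjusted p = 4.02e-06), although the values do not separate the cell's own Egr1 from the added one. Of 41 members 14 were called, against 44.2% of the 12402 genes tested. There were 10 that rose, where 15.2% of all genes did, and 4 that fell, where 29% did. At an unadjusted p below 0.05 there were 17 members (51.9% of all genes), and the change was positive for 26 members and negative for 15, against 37.4% and 62.6% of all genes. The members' median log2 change was 0.06, against -0.10 for all genes. With median-of-ratios scaling the median of all genes moved to 0.01, and the members stood 0.16 above it, against 0.15 with the deposited scaling. In that scaling 16 of 41 members rose and 3 fell, where 2776 of the 12401 genes tested rose and 2721 fell. Rising genes made up 50.5% of all calls in that scaling, against 34.4% without it. Nothing in the labels says that the 3 libraries of a group were separate cultures.

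In the alpha ring all 7 genes were positive, and 4 rose. Psma7 was at 709, 689 and 797 TPM in Egr1 culture and at 473, 502 and 469.7 TPM in Control culture, so every Egr1 culture library was above every Control culture library (log2 0.60 ± 0.07, limma adjusted p = 0.000166). Psma3 was at 146, 145 and 154 TPM in Egr1 culture and at 109, 115 and 119 TPM in Control culture (log2 0.37 ± 0.06, limma adjusted p = 0.0011). The other two that rose were Psma5 (log2 0.24, limma adjusted p = 0.0278) and Psma2 (log2 0.22, limma adjusted p = 0.0393). These smaller changes were lost without 1 library: Psma5 without Egr1 culture replicate 2 or 3 or Control culture replicate 1 (adjusted p 0.0699 to 0.0868), Psma2 without Egr1 culture replicate 1 or 3 or Control culture replicate 1 or 3 (adjusted p 0.0627 to 0.119).

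The beta ring had no call in 7 genes, with log2 changes from -0.13 to 0.19. Psmb5 was at 196, 207 and 224 TPM in Egr1 culture and at 212, 199 and 192 TPM in Control culture, which overlapped (log2 0.06, limma adjusted p = 0.535). Psmb6 had a log2 change of -0.13 (adjusted p = 0.125) and Psmb7 one of 0.19 (adjusted p = 0.0619, and 0.0436 with median-of-ratios scaling). Psmb10 rose. It was at 43.0, 47.5 and 48.4 TPM in Egr1 culture and at 32.4, 27.3 and 23.3 TPM in Control culture (log2 0.73 ± 0.11, limma adjusted p = 0.00103). Its ratio to Psmb7, the subunit it replaces, was 0.0757 to 0.0842 in Egr1 culture and 0.0472 to 0.0646 in Control culture.

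Among the ATPases 3 of 6 rose. Psmc5 was at 405, 401 and 417 TPM in Egr1 culture and at 298, 303 and 296 TPM in Control culture, so the groups lay well apart (log2 0.44 ± 0.05, limma adjusted p = 0.000154). Psmc3 was at 365, 365 and 371 TPM in Egr1 culture and at 312, 318 and 306 TPM in Control culture (log2 0.23 ± 0.05, limma adjusted p = 0.0047). Psmc6 was at 271, 269.6 and 289 TPM in Egr1 culture and at 209.5, 237 and 244 TPM in Control culture (log2 0.26 ± 0.07, limma adjusted p = 0.0141). Psmc3ip had a log2 change of -0.06 and was not called.

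Of the 11 non-ATPase genes 1 rose and 1 fell. Psmd7, the partner of the lid deubiquitinase, was at 285, 292 and 275 TPM in Egr1 culture and at 244, 250.1 and 257 TPM in Control culture (log2 0.18 ± 0.05, limma adjusted p = 0.0217). Psmd1 was at 225, 226 and 213 TPM in Egr1 culture and at 241, 256 and 260.5 TPM in Control culture (log2 -0.19 ± 0.06, limma adjusted p = 0.0243), and its call was lost with median-of-ratios scaling (log2 -0.08, limma adjusted p = 0.252). Psmd7 was lost without Egr1 culture replicate 1 or 2 or Control culture replicate 1 or 2 (adjusted p 0.0613 to 0.0831), and Psmd1 without Egr1 culture replicate 3 or Control culture replicate 2 or 3 (adjusted p 0.0524 to 0.0854). The chaperone Psmd10, also known as gankyrin, rose, with 69.6, 73.1 and 76.4 TPM in Egr1 culture and 51.4, 61.8 and 55.5 TPM in Control culture (log2 0.37 ± 0.08, limma adjusted p = 0.0054).

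Of the 5 activator names 3 fell. Psme1 had the smallest p of all members, at 74.0, 76.1 and 73.9 TPM in Egr1 culture and 114, 118 and 111 TPM in Control culture (log2 -0.61 ± 0.06, limma adjusted p = 5.39e-05). Its partner Psme2 was at 33.5, 32.2 and 32.5 TPM in Egr1 culture and at 57.5, 49.8 and 49.3 TPM in Control culture (log2 -0.66 ± 0.08, limma adjusted p = 0.000221). Both groups lay far apart for both genes of the mixed ring. Psme2b fell as well, with 71.6, 77.1 and 80.5 TPM in Egr1 culture and 97.1, 98.3 and 103 TPM in Control culture (log2 -0.38 ± 0.06, limma adjusted p = 0.0017). Psme3 averaged 147 ± 5.21 TPM in Egr1 culture and 146 ± 5.54 TPM in Control culture (SD, n = 3 each; log2 0.01, limma adjusted p = 0.915), and Psme4 had a log2 change of 0.11 (adjusted p = 0.319, and 0.017 with median-of-ratios scaling). The ratio of Psme1 to Psme3 was 0.4999, 0.503 and 0.524 in Egr1 culture and 0.808, 0.819 and 0.732 in Control culture.

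Psma3, Psma7, Psmb10, Psmc3, Psmc5, Psmc6, Psmd10, Psme1, Psme2 and Psme2b kept their calls under all 14 alternatives. Psmb8 and Psmb9, outside the name rule, were low: Psmb8 was at 2.32 to 4.06 TPM in Egr1 culture and 4.88 to 6.57 TPM in Control culture, and Psmb9 at 2.18 to 4.20 TPM in Egr1 culture and 6.09 to 10.3 TPM in Control culture, so they lay on the same side as Psme1 and Psme2 and opposite to Psmb10. Summed radial glia markers were at 2391 to 2805 TPM in Egr1 culture and 3125 to 3687 TPM in Control culture, and oligodendrocyte precursor markers at 794 to 921 TPM in Egr1 culture and 1571 to 1664 TPM in Control culture. The genes of these 2 sets did not move together. Of the 6 radial glia markers 3 rose and 3 fell (median log2 0.02), where 15.2% and 29% of all genes did. Of 4 oligodendrocyte precursor markers tested, 1 rose and 3 fell. Mature neuron markers were at 24.4 to 29.6 TPM in Egr1 culture and 10.1 to 11.7 TPM in Control culture, and the sums of the endothelial, pericyte, microglia and mature oligodendrocyte sets were under 25 TPM. Their part in these changes was not tested.

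**Figure D4:**
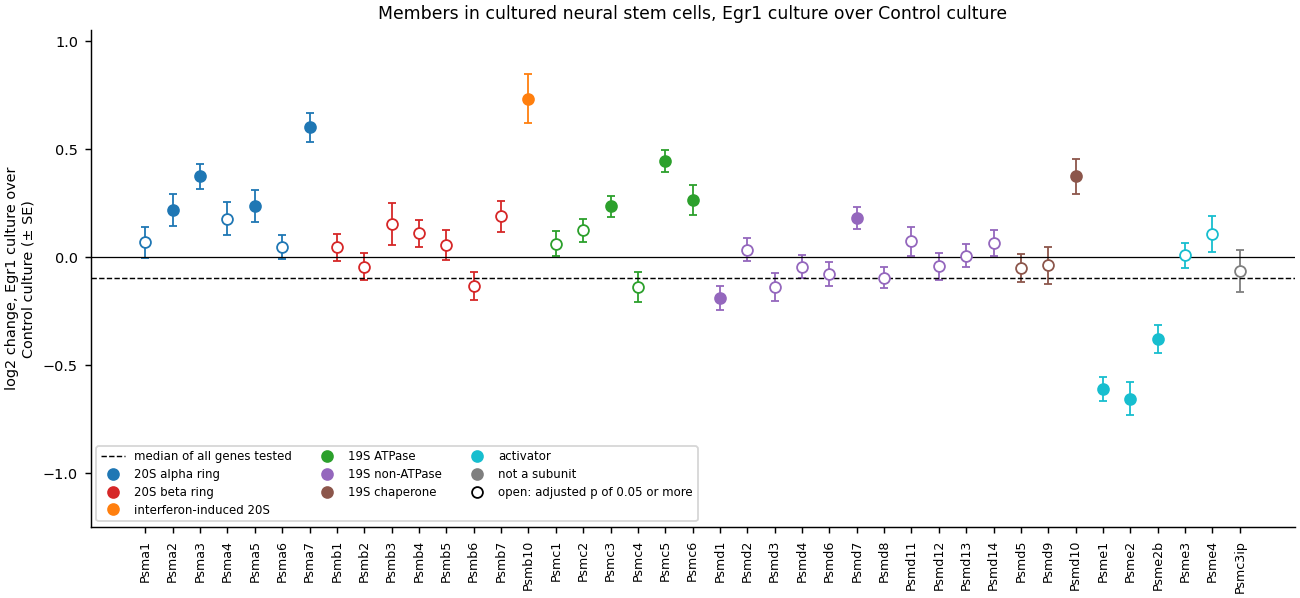
Log2 change ± SE of each tested member in Egr1 culture over Control culture, by place in the complex; filled dots passed at an adjusted p below 0.05 and the dashed line is the median of all genes tested, -0.10. The alpha ring genes, the ATPase genes other than Psmc4 (-0.14) and Psmb10 lie on the positive side and Psme1, Psme2 and Psme2b on the negative side, with the beta ring around 0.

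**Figure D5:**
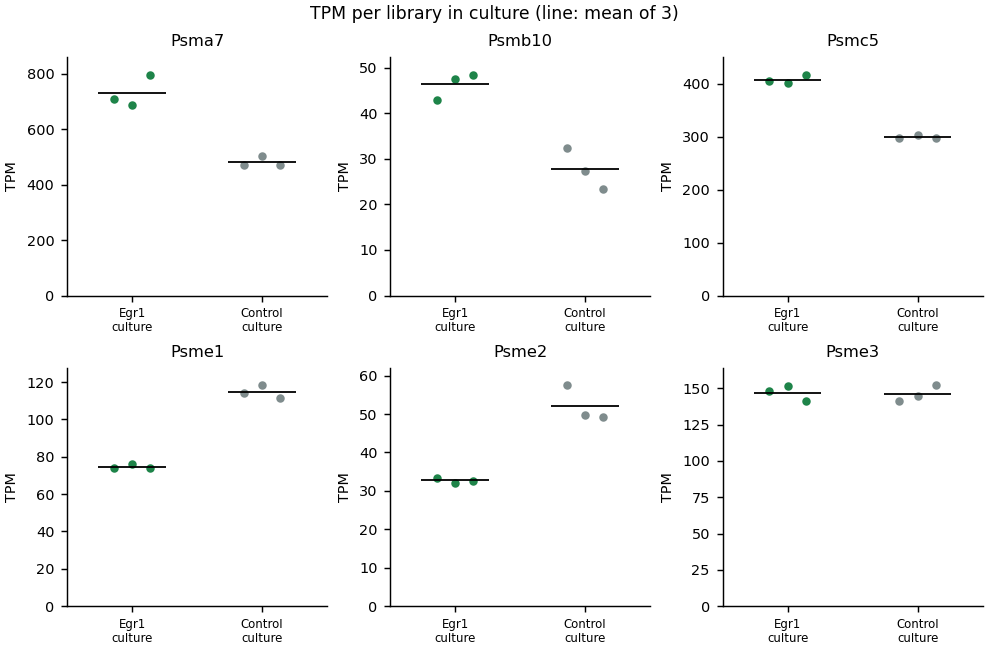
TPM per library of Psma7, Psmb10, Psmc5, Psme1, Psme2 and Psme3, Egr1 culture left of Control culture; each dot is 1 library and the line is the mean of 3. The groups do not overlap for the first 5 genes, higher in Egr1 culture for Psma7, Psmb10 and Psmc5 and lower for Psme1 and Psme2, and they overlap for Psme3.

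Upstream sequence was read from RefSeq (build GRCm38.p6) for some genes of the culture and running comparisons, to show which response elements it holds. They are examples and not the leading genes. Psma3, Psmb10, Psmc3, Psmc5 and Psmd10 rose in culture with smaller limma adjusted p-values than Psmc6 and are not printed. Psmc6 is the only member with matches to both the antioxidant core and the Egr consensus. Psmb5 was not called in the running comparison. Each run below is the 250 bases before the annotated start, on the gene's strand from 5′ to 3′, and capitals mark motif matches. Psme1 (chr14:55578244-55578493, plus strand) and Psme2 (chr14:55591102-55591351, minus strand), which fell in culture, lie near each other on chromosome 14. Psma7 (chr2:180042465-180042714, minus strand) and Psmc6 (chr14:45329574-45329823, plus strand) rose there, and Psmb5 (chr14:54617996-54618245, minus strand) had the most negative log2 change of the beta ring in RUN MDZ 8w over MDZ 8w.
Psme1: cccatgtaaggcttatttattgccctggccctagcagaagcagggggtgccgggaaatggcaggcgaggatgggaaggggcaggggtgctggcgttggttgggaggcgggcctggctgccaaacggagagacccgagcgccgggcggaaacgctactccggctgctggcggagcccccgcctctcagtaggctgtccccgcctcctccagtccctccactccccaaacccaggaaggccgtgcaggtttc
Psme2: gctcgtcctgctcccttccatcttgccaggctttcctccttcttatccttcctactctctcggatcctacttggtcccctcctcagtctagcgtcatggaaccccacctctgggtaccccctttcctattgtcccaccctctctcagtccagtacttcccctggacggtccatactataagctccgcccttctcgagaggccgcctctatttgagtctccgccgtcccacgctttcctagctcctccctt
Psma7: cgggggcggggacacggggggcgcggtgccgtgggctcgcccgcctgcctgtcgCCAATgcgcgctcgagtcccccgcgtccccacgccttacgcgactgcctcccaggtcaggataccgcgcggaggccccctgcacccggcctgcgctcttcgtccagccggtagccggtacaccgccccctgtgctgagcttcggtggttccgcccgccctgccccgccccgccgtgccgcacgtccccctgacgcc
Psmc6: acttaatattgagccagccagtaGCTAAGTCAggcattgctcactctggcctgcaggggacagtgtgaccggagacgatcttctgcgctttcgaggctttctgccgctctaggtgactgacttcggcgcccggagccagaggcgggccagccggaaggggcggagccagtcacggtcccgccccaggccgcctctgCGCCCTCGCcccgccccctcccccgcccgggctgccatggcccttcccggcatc
Psmb5: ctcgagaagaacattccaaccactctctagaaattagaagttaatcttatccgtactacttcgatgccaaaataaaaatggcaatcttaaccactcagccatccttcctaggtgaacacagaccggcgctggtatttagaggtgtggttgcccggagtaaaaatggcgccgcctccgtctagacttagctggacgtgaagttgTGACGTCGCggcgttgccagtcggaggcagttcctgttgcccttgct

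Psme1 and Psme2 held none of the motifs searched. Psma7 held a CCAAT box 196 bases before the start. In Psmc6 the first capitals, 227 bases before the start, are the antioxidant response element core TGACNNNGC on the reverse strand, and the second, 54 bases before it, are the Egr consensus GCGNGGGCG on the reverse strand. Psmb5 held the antioxidant response element core 47 bases before the start. The GC content was 66.8%, 57.2%, 77.2%, 68.0% and 49.6% in the order printed, so Psmb5 stood out as the least GC-rich.

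Over all members, 39 promoters of 36 genes were in the table, in a window from 250 bases before to 50 after the start, on both strands. The antioxidant response element core was in 6 of them (15.4%), those of Psmb5, Psmb6, Psmc6, Psmd9, Psmd12 and Psme4, and in 12.4% of all 32851 promoters. The full element TGACTCAGC was in none and in 0.454% of all. A CCAAT box, CCAAT, was in 14 (35.9%) and in 37.4% of all, and the Egr consensus was in 2 (5.13%), Psmc6 and Psmd11, and in 5.55% of all. Every match of the full element is also one of its core, and a match describes letters and not binding. Of the genes with the Egr consensus, Psmc6 rose in Egr1 culture, and Psmd11 was at 81.5, 78.8 and 74.2 TPM in Egr1 culture and at 72.7, 71.0 and 78.9 TPM in Control culture, which was not called (log2 0.07, limma adjusted p = 0.406).

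Genes that build, feed and regulate the proteasome were counted beside the members. At P10, none of 12 assembly genes and partners, 17 ubiquitin and delivery genes or 14 regulators was called, with medians of 0.04, -0.02 and -0.00. In MDZ 8w over Control 8w 1 of these genes was called, higher, where 4.68% of all genes rose and 0.452% fell. It was Maff, a small Maf partner of Nfe2l1 and Nfe2l2, with 47.8, 76.6 and 65.8 TPM in MDZ 8w and 5.004, 1.03 and 0.168 TPM in Control 8w (log2 4.35, limma adjusted p = 0.0149). The medians of the lists were 0.31, -0.01 and 0.36, against 0.36 for all genes.

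In RUN MDZ 8w over MDZ 8w none of the 3 lists had a call, and the medians were -0.33, -0.14 and -0.09. Only 3 of 12 assembly genes and partners were positive. Adrm1, the ubiquitin receptor outside the name rule, was at 44.5, 45.5 and 47.4 TPM in RUN MDZ 8w and at 61.9, 81.3 and 83.1 TPM in MDZ 8w, without overlap (log2 -0.70, limma adjusted p = 0.455). Psmg2, a chaperone of alpha ring assembly, was at 60.4, 49.7 and 51.3 TPM in RUN MDZ 8w and at 93.2, 73.7 and 97.1 TPM in MDZ 8w (log2 -0.69, limma adjusted p = 0.364). Against Control 8w, RUN MDZ 8w had 1 of 14 regulators higher, Maff (log2 3.62, limma adjusted p = 0.0199), where 9.41% of all genes rose. Of the 17 ubiquitin and delivery genes 1 fell, where 1.9% of all genes did. The medians of the 3 lists were 0.07, -0.14 and 0.29, against 0.51 for all genes.

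In culture 2 of the 12 assembly genes and partners rose and 0 fell, where 15.2% of all genes rose and 29% fell. Pomp, the chaperone that matures the core particle, was at 904, 892 and 979 TPM in Egr1 culture and at 627, 699 and 662 TPM in Control culture (log2 0.48 ± 0.06, limma adjusted p = 0.000388). Usp14, a deubiquitinase that binds the regulatory particle, was at 126, 126 and 123 TPM in Egr1 culture and at 78.4, 86.4 and 86.9 TPM in Control culture (log2 0.57 ± 0.06, limma adjusted p = 0.000133). No library overlapped for either gene, and the other 10 of the list were not called.

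In the culture comparison, of 17 ubiquitin and delivery genes 4 fell and 0 rose, where 29% of all genes fell and 15.2% rose, among them the activating enzyme gene Uba1 (log2 -0.24, limma adjusted p = 0.0148), the shuttle Ubqln2 (log2 -0.44, limma adjusted p = 0.00281) and Zfand2a (limma adjusted p = 0.0163). Of 13 regulators tested, Egr1 rose and 6 fell, read against the same shares. Nfe2l2 was at 162, 159.8 and 142 TPM in Egr1 culture and at 184, 193 and 209.5 TPM in Control culture, so all Egr1 culture libraries were lower (log2 -0.34, limma adjusted p = 0.00573). Its partners Maff and Mafk fell (log2 -0.63 and -0.52, limma adjusted p = 0.0024 and 0.0166), as did Zbtb7b, Foxo4 and Ngly1 (log2 -0.67, -0.42 and -0.24). Nfe2l1 was not called, with means of 143 TPM in Egr1 culture and 137 TPM in Control culture (log2 0.07, limma adjusted p = 0.603). The medians of the 3 lists were -0.06, -0.08 and -0.08, against -0.10 for all genes.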

How the data were processed

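RNA from the 21 libraries was described by values the authors deposited: FPKM per gene at P10, and TPM per gene at 8 weeks and in culture. No label names these units; they were read from the deposited values, since the 8-week and culture libraries each sum to the same total and the P10 totals run from 241508 to 252344 FPKM. Per the submitters' processing notes, the build was mm10 and the tools included TopHat, Bowtie2 and DESeq2, with no role or version. Not given in the sources used here are the counting program, its annotation and its strand setting, so overlapping genes and copies are uncertain. No counts were used, so no counting error is given.

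The members and gene lists were chosen with earlier results of these data known. Every gene whose mean in a fit reached 1 was tested with limma-trend on log2(value + 1) and Benjamini-Hochberg adjustment over all of them, at a threshold of 0.05. Fold changes on this scale understate the change of low genes. P10 and culture fits used their 6 libraries each, and the 8-week fits all 3 groups with one spread and Control 8w replicates 2 and 3 averaged. Tables were never fitted together. P-values measure the spread between libraries, which may be technical in culture. Alternatives changed the pseudocount (0.1 or 5), the filter (none or a mean of 5), the scaling, the library weights, the block and the libraries used. Without Control 8w replicate 1, or with only that replicate, Control 8w was 1 sample. Counts of alternatives under which a call stood include those fits. Named with values were called members (up to 12 by p, with later ones added after their values were seen), otherwise the 3 smallest p in each direction, the catalytic, inducible and activator genes, names that are no subunits, and the highest and lowest member of each group of subunits. All 43 members matched RefSeq symbols. Promoters came from a table of RefSeq GRCm38.p6 promoters, and the table used had no entry for Psma8, Psmb1, Psmb2, Psmb7, Psmc3, Psmd3 and Psmd7. Python 3.11.15 with numpy 2.4.6, pandas 2.3.3 and matplotlib 3.10.9, and R 4.3.3 with limma 3.58.1 and version 1.17.8 of data.table were used, and the fits were tested on simulated data. The 10 chromatin samples of the 31 listed were not analysed here. Single results of some listed genes are not reported here.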

Additional observations from a re-analysis of the deposited data

How the results depend on the processing

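No member was called at P10 under any alternative, and in culture 11 to 19 were. In MDZ 8w over Control 8w the 2 calls became 1 with a pseudocount of 5, with no filter and with only the 2 groups compared, 0 with quantile normalization and with library weights, 4 with Control 8w replicates 2 and 3 kept apart, 21 with both left out (chosen after seeing the data), and 0 to 8 with 1 library left out. In RUN MDZ 8w over MDZ 8w library weights gave 1 in place of 0, and leaving out any 1 library gave 0. In RUN MDZ 8w over Control 8w the 2 calls became 1 with a pseudocount of 5 and with quantile normalization, 0 with no filter, library weights and only the 2 groups, 6 with the replicates kept apart, 19 with them left out, and 0 to 7 with 1 library left out. Psmb10 in that comparison reversed to -1.39 without Control 8w replicate 1 and ran up to 2.11 without other single libraries. Among the 8-week libraries, Control 8w replicate 1 differed most from the others of its group, while Control 8w replicates 2 and 3 were the closest pair. The cause of the changed calls was not tested. Quantile normalization moved the median of all genes to -0.06 in MDZ 8w over Control 8w (0.36 without it), with members at 0.35 relative to it in place of -0.11, to -0.09 in RUN MDZ 8w over Control 8w (0.51 without it), with members at 0.04 relative to it in place of -0.67, and to -0.03 in RUN MDZ 8w over MDZ 8w, with members at -0.26 relative to it in place of -0.37. Calls over all genes ranged from 0 to 101 at P10, 0 to 432 in RUN MDZ 8w over MDZ 8w and 4383 to 6077 in culture. Apart from fits with Control 8w as 1 sample, they ranged from 19 to 1787 in MDZ 8w over Control 8w. In RUN MDZ 8w over Control 8w they ranged from 0 to 2904, again apart from those fits.

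In no comparison did every same-numbered pair of libraries have a correlation of deviations over 0.1 (-0.141 to 0.139 at P10, -0.00978 to 0.0703 in MDZ 8w over Control 8w, -0.0402 to 0.179 in RUN MDZ 8w over MDZ 8w, 0.00305 to 0.0287 in RUN MDZ 8w over Control 8w and -0.0469 to 0.0489 in culture). In none did every library correlate best with its own number, so no pairing of all samples by number was detected. The rule cannot exclude a pairing. In RUN MDZ 8w over MDZ 8w, replicates 1 (0.179) and 2 (0.114) each correlated best with their own number. With the replicate block 0 members were called at P10, 2 in MDZ 8w over Control 8w, 0 in RUN MDZ 8w over MDZ 8w, 3 in RUN MDZ 8w over Control 8w and 11 in culture. The called members changed: in MDZ 8w over Control 8w Psmd4 was lost (adjusted p = 0.0539) and Psmb2 gained (0.035), in RUN MDZ 8w over Control 8w Psmc5 was lost (0.0511) and 1 call was shared with the fit without the block, and in culture Psma2, Psmd1 and Psmd7 were lost (0.0611 to 0.0679). Depth at 8 weeks is unknown, so a value of 0 there cannot be read as absence.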
